A study of Mus musculus with 16 samples.

Results

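The genes described here make, package, take up and break down the inhibitory transmitter GABA in the mouse brain on postnatal day 1. They are Gad1 and Gad2, which encode the glutamate decarboxylases GAD67 and GAD65, Slc32a1 (the vesicular transporter VGAT), Slc6a11 and Slc6a13 (the membrane transporters GAT3 and GAT2) and Abat (GABA transaminase). Every non-control probe that carried 1 of these 6 names, or an older synonym of it, was taken, which gave 13 of the 41174 probes on the array and 6 of 28660 genes. In all, 12 of the 13 probes passed the filter on dim signals.

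GABA is made from glutamate in a single step by GAD67, found through the whole neuron and its processes, and by GAD65, which lies mainly at synaptic vesicles. VGAT then loads it into vesicles. After release it is cleared by transporters of the SLC6 family, of which GAT3 is known from astrocytes and GAT2 from meninges and other non-neuronal cells, and GABA transaminase degrades it in mitochondria. In the newborn brain GABAergic neurons are still migrating and forming their first synapses.

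Fluorescent cells of GAD67-eGFP mice, kept on a C57Bl/6 background, were sorted after dissociation of whole brain (4 arrays) or of dissected cerebellum, striatum, cortex and olfactory bulb (3 arrays for each region). The labels call the arrays biological replicates, name 4 mice for the whole brain cells and 6 mice whose brains were divided into the 4 regions, and do not say which animals went into which array. Each of the 16 two-colour arrays set amplified cDNA of sorted cells (Cy5) against a common reference of whole brain RNA from 4 mice of the same age (Cy3), so a log2 ratio above 0 stands for more signal from sorted than from reference cDNA, and the dyes were never swapped. No group here was free of the reporter among the sorted cells, and the labels do not say whether eGFP was carried as a transgene or placed in the Gad1 gene itself, nor what fluorescence was required for sorting. The reference was intact tissue that was not dissociated or sorted, and whether this moved a ratio was not tested. Because the arrays measure bulk RNA, fewer cells of a type and less RNA per cell cannot be told apart.

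Median spot intensity ran from 150.9 to 717.5 in the sorted channel and from 92 to 254 in the reference, and 72.1% to 96.6% of spots were well above background across channels and arrays. Arrays of 1 group correlated at Pearson's r of 0.93 to 0.989 over the 39227 probes tested. All whole brain arrays were scanned on 1 day and all regional arrays on another, so scan day and whole brain origin cannot be told apart. Forebrain GABAergic transcription factors such as Dlx1 were higher than the reference in 6 of 7 (whole brain), 6 of 7 (olfactory bulb), 7 of 7 (cortex), 7 of 7 (striatum) and 4 of 7 (cerebellum) measured cases, and no glutamatergic marker of 6 was higher outside the cerebellum, where 1 was. Over all probes, 33.8% to 41% were called higher. Pax2, a factor of cerebellar GABAergic precursors, was higher in the cerebellum by 3.17 ± 0.095 (SE, n = 3 arrays) on the log2 scale. The whole list of cerebellar GABAergic markers had array medians of only 0.24 to 0.52 there, and not every marker was higher.

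Sequence before a transcription start is shown for the genes of synthesis and loading, Gad1, Gad2 and Slc32a1, and for Slc6a11, which gave the lowest ratios of the members. RefSeq (build GRCm38.p6) places Gad1 at chr2:70561303-70602014, Gad2 at chr2:22621015-22693877, Slc32a1 at chr2:158607260-158615747, Slc6a11 at chr6:114131241-114249886, Slc6a13 at chr6:121300288-121337721 and Abat at chr16:8513429-8621568. Of the 6 genes, 5 had a start site window in the RefSeq table used, and Abat had none. For Gad1, Gad2 and Slc32a1 the start used in that table lies inside the annotated gene, downstream of its first base, so their stretches lie within the gene positions given. The 250 bases before each start were searched on both strands. The letters TATAAA were taken for a TATA box and the letters GGGCGG for a GC box. The letters CANNTG, which read the same on both strands, were taken for an E-box, the core bound by basic helix-loop-helix factors, and the letters CCAAT for a CCAAT box. Matches are in capitals in the following stretches of 30 bases, all on the plus strand and written 5′ to 3′, and no match in a stretch overlaps another.

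Gad1, E-box, chr2:70562013-70562042: gaggcagtcagaCACCTGcaaaggagcccc
Gad1, TATA box on the minus strand, chr2:70561976-70562005: ccgtgagctggaTTTATAatcgccctacaa
Gad1, GC box on the minus strand, chr2:70562099-70562128: agcgggtccccgcctccccactCCGCCCcc
Gad2, E-box, chr2:22622239-22622268: ctccctcccccgCATCTGactcgcacctca
Gad2, CCAAT box, chr2:22622088-22622117: ctcggccaccattCCAATcttgccaaggtc
Slc32a1, E-box farther from the start, chr2:158610513-158610542: tctagagactctCACCTGtctgtcctgttg
Slc32a1, E-box nearer to the start, chr2:158610709-158610738: ccagaaatgcagCACTTGgggggcccccac

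For Slc6a11, the whole window of 250 bases (chr6:114130991-114131240, plus strand) lies before the annotated gene and held 1 E-box and 3 GC boxes, again in capitals.

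Slc6a11: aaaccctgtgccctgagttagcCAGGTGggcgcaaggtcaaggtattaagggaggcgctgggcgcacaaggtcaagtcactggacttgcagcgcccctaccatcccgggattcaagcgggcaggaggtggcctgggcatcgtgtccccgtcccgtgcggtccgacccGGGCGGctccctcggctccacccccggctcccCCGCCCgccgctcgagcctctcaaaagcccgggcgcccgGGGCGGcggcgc

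The E-box of Gad1 began 104 bases before the start, that of Gad2 76 bases before it and those of Slc32a1 233 and 37 bases before it. Among all 32851 start site windows of this length, 66.2% held an E-box, 33.8% a CCAAT box, 32.7% a GC box and 12.4% a TATA box. The windows of Gad1, Gad2 and Slc32a1 thus share only a motif that most windows hold. G and C made up 58% of the Gad1 window, 64% of the Gad2 window, 62.4% of the Slc32a1 window and 71.2% of the Slc6a11 window, against a median of 52.4% over all windows.

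Gad1 is the gene after which the GAD67-eGFP reporter of the sort is named. By both member probes, its signal in the regional cells was about 1.7 to 2.4 times that of the reference. In the arrays labelled whole brain GABAergic cells it was below the reference by both. Probe 1 gave log2 ratios of -1.61, -1.47, -1.39 and -1.56 on the 4 whole brain arrays. On the regional arrays it gave 0.85, 0.80 and 0.78 (olfactory bulb), 0.74, 0.93 and 0.70 (cortex), 1.06, 0.90 and 0.78 (striatum) and 0.67, 1.26 and 0.58 (cerebellum). Every regional array was thus above 0 and every whole brain array below it. Probe 2 showed the same separation, with -1.30, -1.36, -1.26 and -1.36 in whole brain, 1.34, 1.29 and 1.19 in olfactory bulb, 1.14, 1.22 and 1.05 in cortex, 1.32, 1.19 and 1.01 in striatum and 0.93, 1.49 and 0.87 in cerebellum.

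Against the reference, the whole brain mean of Gad1 was -1.51 ± 0.083 (SE, n = 4 arrays, 2.84-fold lower, limma adjusted p = 3.83e-12) by probe 1 and -1.32 ± 0.077 (2.50-fold lower, adjusted p = 9.69e-12) by probe 2. Whole brain cells were lower than cells of each region, by 2.3 to 2.42 on the log2 scale with probe 1 and by 2.42 to 2.60 with probe 2 (8 of 8 limma contrasts called, largest adjusted p = 3.12e-11). By both member probes the level of Gad1 therefore goes against the label of the whole brain arrays. On those arrays Dlx1 (1.71 ± 0.059) and Slc32a1 were above the reference. A further probe described as a Gad1 clone was also above it there (0.61), with a reference signal not well above background. The Gad2 probes disagreed there (-0.28 and 1.38). The cause of these disagreements was not tested. Statements on whole brain cells refer to the arrays so labelled.

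Among the 4 regions, no difference in Gad1 was called by limma's moderated F test, which asks for any difference between regions (adjusted p = 0.837 for probe 1 and 0.596 for probe 2). This test called 10 of the 12 member probes, and 55% of all probes. The order of the means by probe 1 was striatum, cerebellum, olfactory bulb, cortex and whole brain, and by probe 2 olfactory bulb, striatum, cortex, cerebellum and whole brain. In both orders the only neighbours called different were the lowest region and whole brain. Cerebellum replicate 2, which also had the brightest sorted channel of all arrays, was the highest cerebellar array for both probes, and without it the moderated F test of probe 2 passed (adjusted p = 0.0251). With scaling between arrays (adjusted p = 0.0163) or median centring in place of loess (adjusted p = 0.0466) it passed too, so only probe 1 was uncalled throughout.

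**Figure D1:**
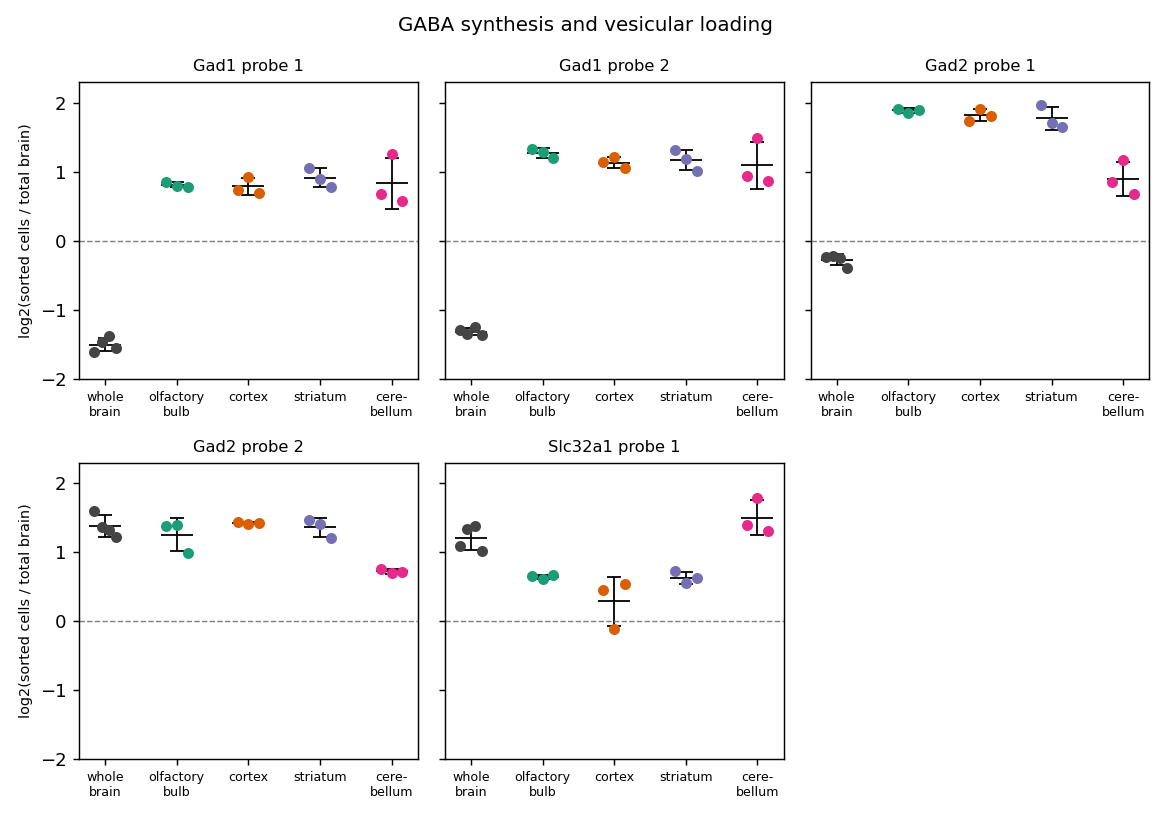
Log2 ratio of sorted cells to total brain on each array (points, coloured by group) for the probes of Gad1, Gad2 and Slc32a1, with group means and SD as black bars and equality as a dashed line. Both Gad1 probes separate the 4 whole brain arrays, at -1.61 to -1.26, from the 12 regional arrays, at 0.58 to 1.49. The whole brain arrays lie below 0 for Gad2 probe 1 and above 0 for Gad2 probe 2.

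Gad2 was higher than the reference in all 4 regions and was lower in the cerebellum than in the forebrain regions, by both of its probes. Probe 1, which the array names 6330404F12Rik after a cDNA clone, gave 1.92, 1.86 and 1.90 in olfactory bulb, 1.74, 1.91 and 1.82 in cortex, 1.97, 1.70 and 1.65 in striatum and 0.85, 1.17 and 0.68 in cerebellum. Probe 2, designed on the reference transcript of the gene, gave 1.38, 1.40 and 0.98 in olfactory bulb, 1.44, 1.41 and 1.42 in cortex, 1.47, 1.41 and 1.21 in striatum and 0.76, 0.70 and 0.71 in cerebellum. By neither probe did a cerebellar array reach the lowest forebrain array.

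The forebrain regions exceeded the cerebellum by 0.99 ± 0.11 (olfactory bulb, SE, n = 3 and 3 arrays, limma adjusted p = 2.82e-06), 0.92 ± 0.11 (cortex, adjusted p = 1.1e-05) and 0.88 ± 0.11 (striatum, adjusted p = 1.42e-05) with probe 1. With probe 2 the same differences were 0.53 ± 0.11 (adjusted p = 0.00126), 0.70 ± 0.11 (adjusted p = 0.000226) and 0.64 ± 0.11 (adjusted p = 0.000328). These 6 calls and their direction held under every alternative run. Olfactory bulb, cortex and striatum did not pass the test against each other with either probe.

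In whole brain cells the Gad2 probes disagreed. Probe 1 gave -0.24, -0.22, -0.25 and -0.40, a mean of -0.28 ± 0.069 (SE, n = 4, limma adjusted p = 0.00132), and probe 2 gave 1.60, 1.37, 1.33 and 1.22, a mean of 1.38 ± 0.070 (2.60-fold higher, adjusted p = 1.07e-12). The value of probe 1 turned to 0.20 (adjusted p = 0.0612) with median centring. By probe 1, whole brain minus region was between -2.17 and -1.18 for the 4 regions. By probe 2 it differed only from the cerebellum, over which it was higher by 0.66 ± 0.11 (adjusted p = 3.76e-05). The probes thus gave no common order of whole brain and the forebrain regions for Gad2, and their positions on the transcript are not used here.

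Slc32a1, whose product fills vesicles with GABA, ran in another order than Gad1 and Gad2, with the cerebellum and whole brain highest. Its single probe gave 1.40, 1.79 and 1.31 in cerebellum and 1.09, 1.33, 1.38 and 1.02 in whole brain. It gave 0.65, 0.61 and 0.66 in olfactory bulb, 0.72, 0.55 and 0.62 in striatum and 0.45, -0.12 and 0.53 in cortex. The cerebellar and whole brain arrays were thus all above 1 and those of the other regions all below it. Cortex replicate 2 was the only array of the 16 below the reference.

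The mean of Slc32a1 was 1.5 ± 0.11 in cerebellum (SE, n = 3, 2.83-fold higher than the reference, limma adjusted p = 3.73e-10) and 1.21 ± 0.093 in whole brain (2.31-fold, adjusted p = 5.66e-10). It was 0.64 ± 0.11 in olfactory bulb and 0.63 ± 0.11 in striatum (adjusted p = 3.18e-05 and 4.42e-05). The cerebellum exceeded olfactory bulb by 0.86 ± 0.15, cortex by 1.21 ± 0.15 and striatum by 0.87 ± 0.15 (largest adjusted p = 0.000257), and these 3 calls held under every alternative. The contrasts of cerebellum with whole brain (limma adjusted p = 0.0896), olfactory bulb with striatum (0.967) and striatum with cortex (0.129) were not called. In the last of these, every striatum array was nonetheless above every cortex array.

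The cortical mean of Slc32a1, 0.29 ± 0.11 (limma adjusted p = 0.024), depended on single arrays. The SD of the cortex arrays was 0.35, against 0.026 in olfactory bulb, although the shared estimate gave both the same SE. The cortical mean was 0.21 (adjusted p = 0.181) without cortex replicate 1, 0.49 (adjusted p = 0.000563) without replicate 2 and 0.16 (adjusted p = 0.273) without replicate 3. With scaling between arrays, the excess of whole brain over olfactory bulb fell from 0.57 to 0.29 (adjusted p = 0.0511) and that over striatum from 0.58 to 0.24 (adjusted p = 0.117).

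Each ratio was also divided into its channels, after the average intensities of all arrays had been brought to 1 distribution. Of the 70 member differences between groups that were called, 67 lay mostly in the sorted channel. The exceptions all involved whole brain. Whole brain minus cerebellum was divided into 0.15 (sorted) and -0.56 (reference) for Abat probe 1, and into -0.12 and -0.13 for Abat probe 3. Whole brain minus striatum in Slc32a1 was divided into 0.26 and 0.32. The reference signal of Abat probe 1 spanned 0.95, against 0.94 for its sorted signal. The difference of whole brain minus olfactory bulb in Gad1 probe 1, -2.32, was made up of -2.21 in the sorted channel and -0.10 in the reference channel. Slc32a1 was less regular, because its reference signal spanned 1.36 on the log2 scale over the 16 arrays although the reference was common to all. Between olfactory bulb and striatum its sorted signal contributed -0.81 to the ratio and its reference signal 0.82. Both channels were thus dimmer in olfactory bulb than in striatum, and a difference of only 0.012 was left in the ratio.

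**Figure D2:**
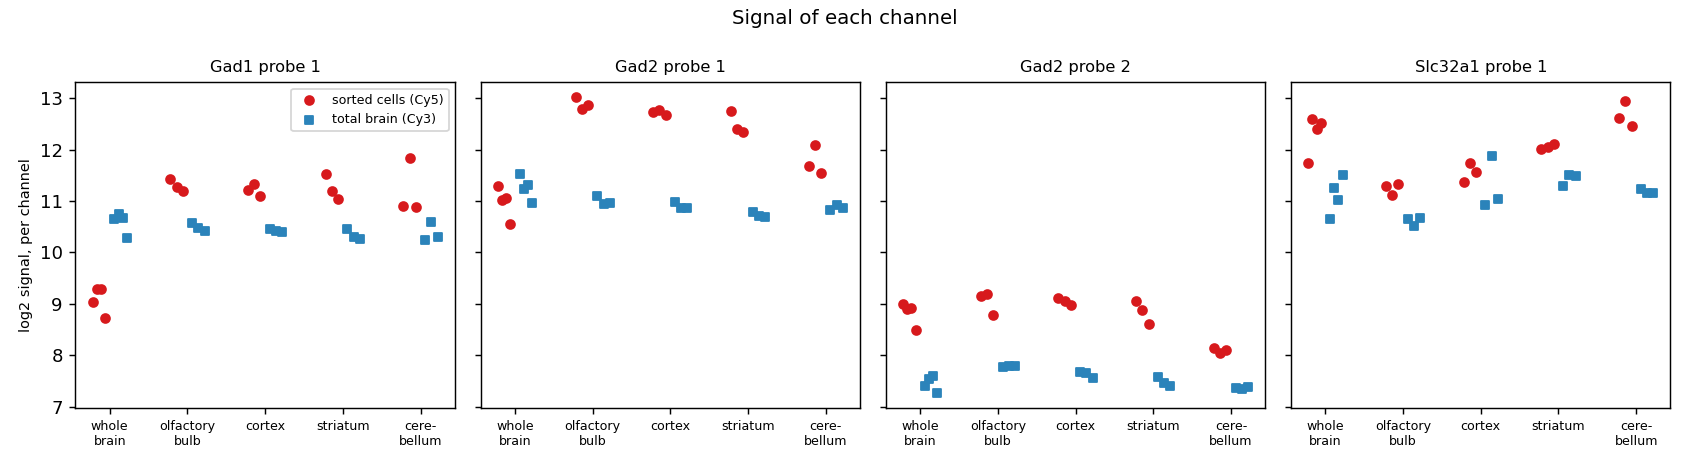
Log2 signal of the sorted cells (Cy5, red circles) and of the total brain reference (Cy3, blue squares) on each array after loess and equalization of average intensities, for 4 probes in the 5 groups. For Gad1 probe 1 the sorted signal of whole brain is the one that differs, while the reference spans 0.52 over all arrays. For Slc32a1 the reference itself spans 1.36.

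The uptake genes stood below the reference in sorted cells of every group. Slc6a11 encodes GAT3, the GABA transporter of astrocytes. By probe 2 it gave -3.41, -3.14, -3.13 and -3.05 in whole brain, -3.21 on each of the 3 cortex arrays, -2.48, -2.77 and -2.97 in olfactory bulb, -1.75, -1.72 and -1.84 in striatum and -1.47, -1.52 and -1.29 in cerebellum. By probe 1 it gave -1.56, -1.37, -1.34 and -0.84 in whole brain, -1.87, -1.75 and -1.73 in cortex, -1.77, -1.86 and -1.96 in olfactory bulb, -0.99, -0.91 and -0.67 in striatum and -0.32, -0.21 and -0.30 in cerebellum. Both probes put striatum and cerebellum nearest to the reference, with no array of either region overlapping olfactory bulb or cortex.

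The deficit of Slc6a11 against the reference was 9.24-fold in cortex and 9.09-fold in whole brain by probe 2, and 2.69-fold in cerebellum (log2 mean -1.43 ± 0.082, SE, n = 3, limma adjusted p = 1.73e-11). Cerebellum exceeded cortex by 1.78 ± 0.12 (adjusted p = 3.47e-09) with probe 2 and by 1.51 ± 0.14 (adjusted p = 2.69e-07) with probe 1. Striatum exceeded cortex by 1.44 ± 0.12 (adjusted p = 9.54e-07) and 0.93 ± 0.14 (adjusted p = 0.000291). These 4 differences, and the same ones against olfactory bulb, held under every alternative.

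Other steps in the order of Slc6a11 were less firm. Cerebellum exceeded striatum by 0.58 ± 0.14 with probe 1 (adjusted p = 0.00287, and 0.0556 with median centring) and by 0.34 ± 0.12 with probe 2 (adjusted p = 0.0263). The call of probe 2 was lost without striatum replicate 1 (0.0596), striatum replicate 3 (0.0843) or cerebellum replicate 3 (0.109), these being adjusted p-values, with the scanner's own ratio (0.0628) and with median centring, where cerebellum exceeded striatum by only 0.093 (0.597). The cerebellar mean of probe 1 was -0.28 ± 0.096 (adjusted p = 0.0145), and this call was lost without cerebellum replicate 1 (-0.26, adjusted p = 0.068) or replicate 3 (-0.27, adjusted p = 0.0588). The probes opposed each other in whole brain against olfactory bulb, where probe 1 was higher by 0.58 (adjusted p = 0.000713) and probe 2 was lower by 0.45 (adjusted p = 0.00162), the latter turning to 0.33 (adjusted p = 0.051) with scaling between arrays.

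Slc6a13 encodes GAT2, which is known from meninges and the borders of the brain. Probe 1 gave -1.79, -1.86, -1.84 and -1.28 in whole brain, -2.22, -2.17 and -2.01 in olfactory bulb, -1.53, -1.38 and -1.27 in cortex, -1.88, -1.57 and -1.41 in striatum and -1.18, -1.46 and -1.08 in cerebellum. Probe 2 gave -1.68, -1.71, -1.81 and -1.16, then -2.20, -2.43 and -2.08, then -1.78, -1.80 and -1.86, then -2.05, -1.66 and -1.55, and last -1.19, -1.49 and -1.26, in the same order of groups. Olfactory bulb was the lowest group and cerebellum the highest by both probes, and every value was below the reference.

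The means of Slc6a13 were 2.36-fold (cerebellum) to 4.39-fold (olfactory bulb) below the reference by probe 1 and 2.49-fold to 4.71-fold by probe 2 (largest limma adjusted p = 4.43e-09). Olfactory bulb was lower than cerebellum by 0.89 ± 0.15 (adjusted p = 0.000148) and 0.92 ± 0.15 (adjusted p = 0.000141), and lower than whole brain by 0.44 ± 0.14 (adjusted p = 0.0117) and 0.64 ± 0.14 (adjusted p = 0.000822), in all alternatives too. Only probe 1 called olfactory bulb lower than cortex, by 0.74 ± 0.15 (adjusted p = 0.00285), while probe 2 gave adjusted p = 0.0705. Other calls of Slc6a13, olfactory bulb under striatum by both probes, cortex and striatum under cerebellum by probe 2 and whole brain under cerebellum by probe 1, were each lost under 4 or more alternatives. Whole brain replicate 4 stood above the other 3 for Slc6a13 and for Slc6a11 probe 1, and without it the whole brain mean was -1.83 for Slc6a13 probe 1, -1.74 for its probe 2 and -1.42 for Slc6a11 probe 1, each still called.

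Markers of other cells were measured beside these transporters. Astrocyte and radial glia markers were below the reference in 8 of 10 (whole brain), 8 (olfactory bulb), 7 (cortex), 7 (striatum) and 8 (cerebellum) cases, and above it in 1, 2, 2, 3 and 2. Their median log2 ratio over the arrays of a group ran from -1.35 to -1.25 in cortex, -1.21 to -0.94 in whole brain, -1.15 to -1.04 in olfactory bulb, -0.999 to -0.892 in striatum and -0.83 to -0.64 in cerebellum, and Slc6a11 was likewise least reduced in striatum and cerebellum. Microglial medians were -1.33 to -1.08 in olfactory bulb and -1.27 to -1.20 in cortex. They ran from -0.34 to -0.23 in striatum, -0.42 to -0.27 in cerebellum and -0.32 to -0.14 in whole brain. Oligodendrocyte medians were also lower in olfactory bulb (-1.88 to -1.75) and cortex (-1.77 to -1.73). In striatum they were -1.12 to -1.10, in cerebellum -1.07 to -0.92 and in whole brain -1.09 to -0.98. Endothelial and mural medians did not split so (-1.47 to -1.09 in cerebellum). Of 11 meningeal and choroid plexus markers, 6, 8, 7, 7 and 7 were below the reference and 2, 1, 2, 3 and 2 above it in the same groups as listed for astrocytes, with array medians between -0.73 and -0.32 in olfactory bulb and between -0.28 and -0.22 in whole brain. All other groups lay between -0.49 and -0.32. The -0.73 came from olfactory bulb replicate 1 alone, and replicates 2 and 3 (-0.38 and -0.32) lay in the range of those other groups. Over all probes, 32.7% to 38% were called lower and 33.8% to 41% higher. The part of the cells marked by these lists in the levels of Slc6a11 and Slc6a13 was not tested.

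**Figure D3:**
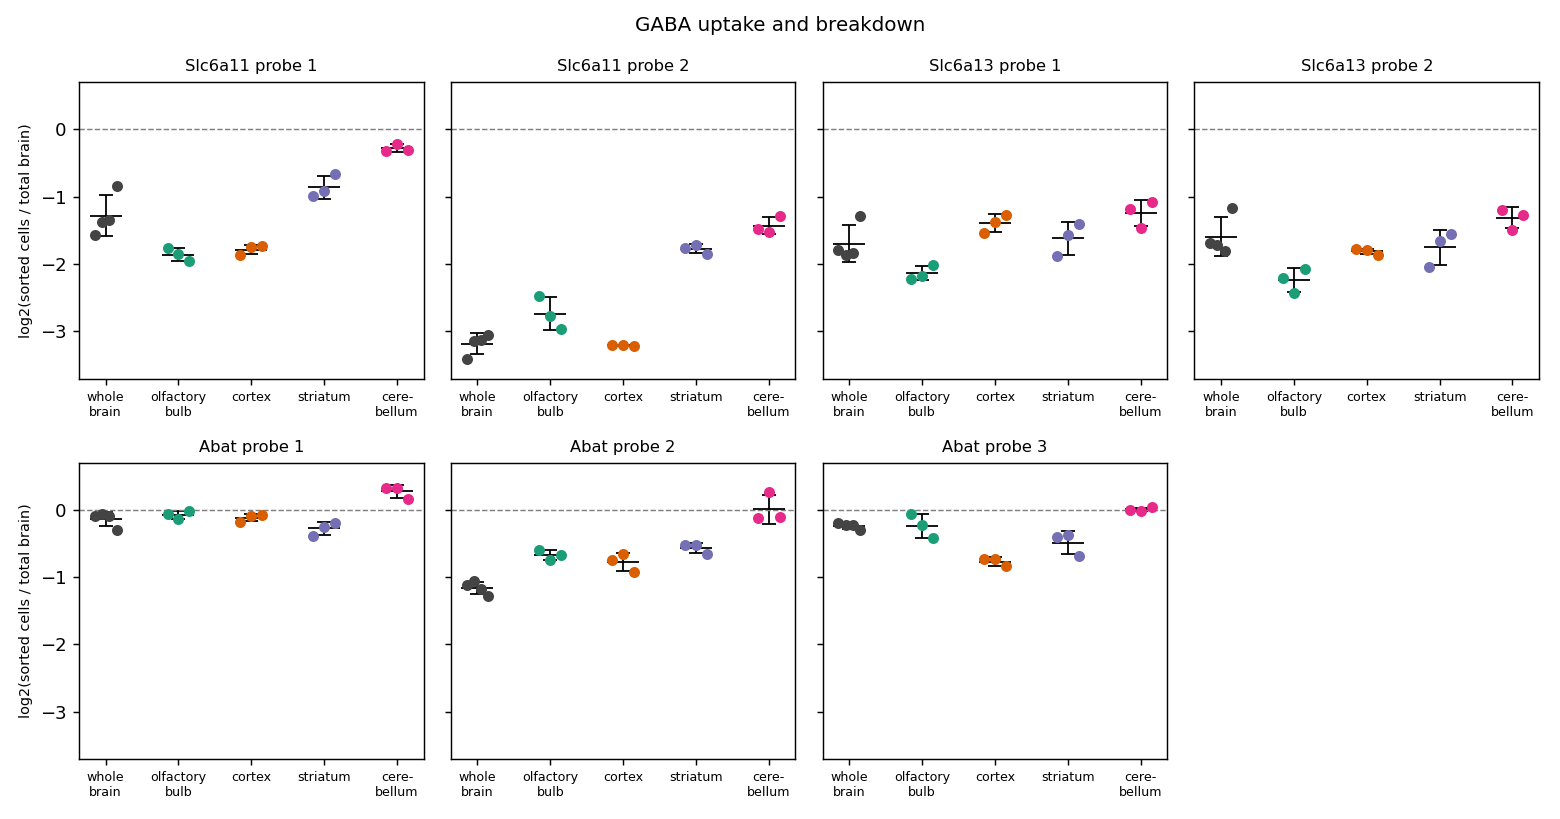
Log2 ratio of sorted cells to total brain on each array (points, coloured by group) for the 7 measured probes of Slc6a11, Slc6a13 and Abat, with group means and SD as black bars and equality as a dashed line. Slc6a11 and Slc6a13 lie below 0 on all 16 arrays, and Slc6a11 is nearest to 0 in striatum and cerebellum. The Abat probes reach 0 in the cerebellum.

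Abat encodes the transaminase that opens the breakdown of GABA, and it was highest in the cerebellum, where 1 of its 3 measured probes was above the reference, and was at or below the reference elsewhere. Probe 2 gave -1.12, -1.06, -1.18 and -1.28 in whole brain, -0.60, -0.75 and -0.68 in olfactory bulb, -0.75, -0.66 and -0.93 in cortex, -0.53, -0.53 and -0.66 in striatum and -0.13, 0.26 and -0.10 in cerebellum. Probe 3 ran from -0.84 to -0.73 in cortex, -0.69 to -0.38 in striatum, -0.43 to -0.07 in olfactory bulb, -0.31 to -0.19 in whole brain and -0.015 to 0.035 in cerebellum. Probe 1 stayed between -0.38 and -0.02 outside the cerebellum, where it gave 0.33, 0.32 and 0.16. Probe 4, made on another cDNA clone, was not well above background in either channel on any array.

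The cerebellum had the highest mean by all 3 measured probes. It exceeded cortex by 0.39 ± 0.087 (SE, n = 3 and 3, limma adjusted p = 0.00312), 0.79 ± 0.11 (adjusted p = 3.08e-05) and 0.78 ± 0.099 (adjusted p = 1.7e-05) with probes 1, 2 and 3. It exceeded striatum by 0.55 ± 0.087 (adjusted p = 0.000118), 0.58 ± 0.11 (adjusted p = 0.00039) and 0.50 ± 0.099 (adjusted p = 0.000791). Over olfactory bulb the excess was 0.35 ± 0.087 (adjusted p = 0.00413) and 0.69 ± 0.11 (adjusted p = 6.87e-05) with probes 1 and 2, and probe 3 missed the threshold (adjusted p = 0.0576). The differences of probe 1 were lost with median centring, at 0.24, 0.25 and 0.028 for cerebellum over cortex, striatum and olfactory bulb (adjusted p = 0.263, 0.171 and 0.893), while those of probes 2 and 3 against cortex and striatum held.

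The Abat probes placed whole brain differently among the groups. By probe 2 its mean was -1.16 ± 0.065 (adjusted p = 4.58e-12), the lowest of all groups, by probe 3 it was -0.24 ± 0.061 (adjusted p = 0.00144), above cortex by 0.53 ± 0.092 (adjusted p = 8.33e-05), and by probe 1 it was -0.14 ± 0.054 (adjusted p = 0.0252). The value of probe 1 was -0.086 (adjusted p = 0.177) without whole brain replicate 4. With median centring, probes 1 and 3 in whole brain turned to 0.35 (adjusted p = 0.000886) and 0.29 (adjusted p = 0.00265). Abat in the cerebellum did not pass the test against the reference with probe 2 (adjusted p = 0.909) or probe 3 (adjusted p = 0.933), but with median centring probe 3 was higher there, at 0.24 (adjusted p = 0.028).

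Counted together, the 12 measured probes were called against the reference in 12 cases for whole brain (2 higher and 10 lower), where 78.9% of all probes were called, 41% higher and 38% lower. They were called in 11 for olfactory bulb (5 higher, 6 lower; all probes 66.9%, 34.3% and 32.7%), 11 for cortex (5 and 6; 67.9%, 34.4% and 33.5%), 12 for striatum (5 and 7; 66.9%, 33.8% and 33.1%) and 10 for cerebellum (6 and 4; 74.8%, 38.5% and 36.3%). With so many probes called, the number of members called says little, so the directions are given by role: in the 4 regions the 5 probes of Gad1, Gad2 and Slc32a1 were higher and the 4 of Slc6a11 and Slc6a13 lower, while the called Abat probes were lower in the forebrain regions and 1, probe 1, was higher in the cerebellum. The median log2 ratio of the 12 probes was -1.22 in whole brain, 0.14 in cerebellum, -0.38 in striatum, -0.45 in cortex and -0.16 in olfactory bulb, against medians of 0.037, 0.025, 0.010, 0.0079 and 0.010 over all probes. All 5 comparisons share the reference.

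Between groups, 9 of the 12 probes differed between whole brain and olfactory bulb (57.9% of all probes), 7 between whole brain and cortex (54.1%), 8 between whole brain and striatum (57.5%) and 10 between whole brain and cerebellum (54.3%). Among regions, 9 differed between cerebellum and olfactory bulb (39.2% of all probes), 9 between cerebellum and cortex (25.9%) and 9 between cerebellum and striatum (36.6%). Within the forebrain, 3 differed between olfactory bulb and cortex (15.4%), 4 between olfactory bulb and striatum (25.6%) and 2 between cortex and striatum (16.8%). The contrasts with the cerebellum thus held more of the called members than those within the forebrain, as they also held more of all probes.

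The other membrane transporters of the family were read by their brightest probe. The taurine transporter Slc6a6 was lower than the reference in all groups by limma, most in whole brain at -2.55 ± 0.060 (SE, n = 4 arrays), and only 1 of its 2 probes was lower in the regions. The glycine transporter Slc6a9 was higher in all groups, from 0.52 ± 0.074 in striatum to 0.89 in cerebellum and whole brain. Slc6a5, the transporter that marks glycinergic neurons, was higher in cerebellum (0.36 ± 0.093, adjusted p = 0.0021) and was well above background in the sorted channel there alone. Of the 6 transporters measured, 1, 2, 2, 3 and 2 were higher and 4, 1, 1, 1 and 2 lower in whole brain, olfactory bulb, cortex, striatum and cerebellum. Over all probes, 33.8% to 41% were called higher and 32.7% to 38% lower.

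Genes that supply glutamate and the cofactor of the decarboxylases moved both ways, as all probes did. Over all probes, 41%, 34.3%, 34.4%, 33.8% and 38.5% were called higher in the same order of groups. The shares called lower were 38%, 32.7%, 33.5%, 33.1% and 36.3%. Of 13 measured, 4, 4, 5, 3 and 5 were higher and 8, 5, 8, 6 and 7 lower than the reference in the same order of groups, with list medians of -0.64, -0.11, -0.41, -0.17 and -0.32. Pdxk, the kinase that makes the pyridoxal phosphate GAD needs, was higher in every group, from 0.67 ± 0.090 in striatum to 1.63 ± 0.078 in whole brain, but only 1 of its 3 probes had that direction. The glial genes Glul and Slc1a3, for glutamine synthetase and the glutamate transporter GLAST, were lower in every group, with -2.15 ± 0.056 and -2.89 ± 0.062 in whole brain, although 1 of the 3 Glul probes had the opposite sign in whole brain and striatum and 1 of the 2 Slc1a3 probes had it in all groups but striatum.

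Genes of GABA breakdown and its side routes were nearly all lower in sorted cells, where 32.7% to 38% of all probes were called lower. Of 7 measured, 5, 6, 6, 7 and 7 were lower in whole brain, olfactory bulb, cortex, striatum and cerebellum and 1, 0, 0, 0 and 0 higher by limma, the only higher one being Aldh9a1 in whole brain (0.29 ± 0.052), where its other probe had the opposite sign. Maob was the member that missed the threshold in whole brain, olfactory bulb and cortex, and its sorted signal was not well above background on the olfactory bulb, cortex and striatum arrays. Aldh5a1, the succinate semialdehyde dehydrogenase that follows Abat in the pathway, was lower by 0.21 to 0.71 with both of its probes. Ogdh, of the citric acid cycle, was lower by 1.22 to 1.83. The median log2 ratio of each array over this list lay between -1.17 and -0.63.

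Of the 3 vesicle partners of GAD65, Zdhhc17, an enzyme that attaches palmitate to GAD65, was higher in the 4 regions (0.24 to 0.36) and lower in whole brain (-0.42 ± 0.070). The chaperones Dnajc5 and Hspa8 were lower in all groups. Whole brain was lower for Zdhhc17 than each region by 0.66 to 0.78 on the log2 scale (largest limma adjusted p = 3.76e-05), and its 3 probes agreed in direction against the reference in whole brain, olfactory bulb and striatum but not in cortex or cerebellum.

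**Figure D4:**
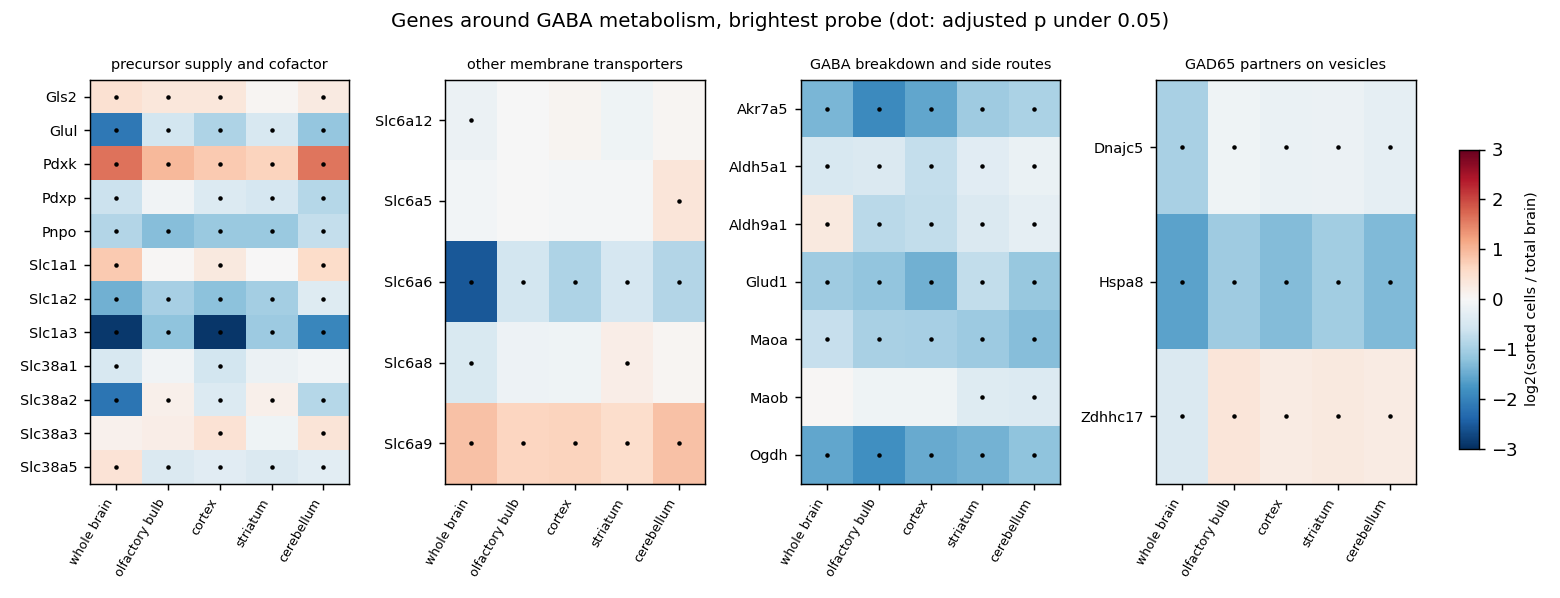
Mean log2 ratio of sorted cells to total brain (colour, from -3 in blue to 3 in red) for genes of 4 lists around GABA metabolism in the 5 groups, with a dot where limma's adjusted p was under 0.05. The breakdown genes are mostly blue in all groups, while Zdhhc17 is red in the 4 regions and blue in whole brain.

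The genes whose ratio over the 16 arrays ran most like that of each member, by Pearson's r between brightest probes among 16050 genes whose sorted signal was well above background on all arrays, were named as a description, since the arrays share the reference, their depth and the split between whole brain and regions. For Gad1 they were Hmgb3 (r = 0.996), Tnrc6c (0.996) and Sox11 (0.995), for Gad2 Hnrnpr (0.995), Hnrnph1 (0.994) and Cdk17 (0.993), and for Slc32a1 Pmaip1 (0.931), Arrb2 (0.931) and Cacna1a (0.929). They were Pgm1 (0.971), H2-Q7 (0.958) and Dnm1 (0.956) for Slc6a11, Gpr135 (0.953), Zfp735 (0.944) and Cyp46a1 (0.925) for Slc6a13 and B230208H11Rik (0.927), Tfap2a (0.922) and Ahcy (0.902) for Abat. The brightest probe of Gad2 is probe 1, so the likeness of Gad2 is that of the probe on which whole brain is low. The likeness of Slc6a11 and Abat also rests on a probe 1 that differs from another probe in whole brain. Slc6a11 was -1.28 there by probe 1 and -3.18 by probe 2. Abat was -0.14 by probe 1, -1.16 by probe 2 and -0.24 by probe 3.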

How the data were processed

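In all, 16 two-colour Agilent arrays were read from scanner files. Mean intensity of each spot and the median of its local background, in each channel, and the scanner's log10 ratio (Cy5 over Cy3), were obtained by the authors with Agilent Feature Extraction 8.1.1.1, per the file headers and the submitters' processing notes. The header of striatum replicate 2 names another extraction protocol than those of all other arrays. The deposited value table equals the scanner's log10 ratio within 0.005. For the reference, the labels give Cy3 as dye and red as colour, and direction was taken from the dye.

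Intensity was corrected by normexp (offset 50, which draws ratios of dim spots towards 0) and log2 ratios underwent within-array loess in limma 3.58.1 in R 4.3.3 (figures by matplotlib 3.10.9). Spots of a probe were averaged. Probes were kept where Cy5 was well above background on 3 arrays or more, or Cy3 on 8 or more, leaving 39227. A model with a mean per group was fitted over the 16 arrays by lmFit and eBayes, and Benjamini-Hochberg adjusted p under 0.05 over all probes was called. Current RefSeq names came through accessions (21445 probes), symbols (5431) or synonyms (4624), and 9674 probes kept the array name. Probes of a member were numbered by brightness.

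Named were all probes of the 6 members, genes of the lists (by brightest probe) and the 3 genes most like each member. Members and lists were chosen with earlier results of these data known. The lists hold 13 genes of precursor supply and cofactor, 6 other transporters, 8 of breakdown (Gadl1 was not measured), 3 GAD65 partners and markers of 8 cell types. Other lists are given here in the order whole brain, olfactory bulb, cortex, striatum, cerebellum. Of 6 cerebellar GABAergic markers, 2, 1, 1, 1 and 5 were higher than the reference and 1, 3, 3, 3 and 1 lower. Of 6 endothelial and mural markers, 1, 0, 0, 0 and 0 were higher and 5, 5, 5, 5 and 6 lower. Of 5 microglial markers, 1, 0, 1, 1 and 1 were higher and 4, 5, 3, 3 and 3 lower. Of 6 oligodendrocyte markers, 5, 5, 6, 6 and 6 were lower and the rest were not called. Over all probes, 33.8% to 41% were called higher and 32.7% to 38% lower. Single values of 2 genes of these lists are not reported here. The fit was tested on simulated data. The number of arrays limits the precision.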

Additional observations from a re-analysis of the deposited data

Results flagged for a closer look

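Whole brain was the only group of 4 arrays, and so the only one tested for an array apart from the others. For 3 of the 12 probes whole brain replicate 4 lay apart by Dixon's criterion at the 95% level: Gad2 probe 1 at -0.40 (gap over range 0.834), Slc6a13 probe 1 at -1.28 (0.871) and Abat probe 1 at -0.30 (0.882). Chance gives about 1 such array in 20 groups.

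The ratio to the reference had opposite signs on every array of 2 groups, with a called difference, for 3 patterns. For Gad1, whole brain minus olfactory bulb, cortex, striatum and cerebellum was -2.32, -2.30, -2.42 and -2.34 with probe 1 and -2.60, -2.46, -2.49 and -2.42 with probe 2. For Gad2 probe 1 the same differences were -2.17, -2.10, -2.05 and -1.18. For Abat probe 1, whole brain, olfactory bulb, cortex and striatum minus cerebellum gave -0.41, -0.35, -0.39 and -0.55. The -0.41 of whole brain lay mostly in the reference channel (-0.56, against 0.15 in the sorted channel). The limma adjusted p of these 16 differences was at most 0.00413. How many of all probes had such opposite signs was not counted, so these patterns cannot be called unusual. Of all probes, 54.1% to 57.9% were called between whole brain and a region. Between the other regions and the cerebellum, 25.9% to 39.2% were called.

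A further probe, whose array annotation describes a Gad1 clone but whose name is not Gad1 or a synonym, was not counted among the members. Its sorted signal was well above background on all 16 arrays, but its reference signal only on 2 cerebellum arrays, so its ratios rest on a reference level that was mostly not measured. With that limit, its mean log2 ratio was 0.61 in whole brain, 1.48 in cerebellum, 1.1 in striatum, 1.43 in cortex and 1.11 in olfactory bulb (largest limma adjusted p = 1.16e-05).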

How the results depend on the processing

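Of the 56 called member values against the reference, 46 kept direction and call under every alternative run, as did 50 of the 70 called differences between groups and 9 of the 10 called F tests. With median centring, values against the reference turned to 0.20 (Gad2 probe 1), 0.35 (Abat probe 1) and 0.29 (Abat probe 3) in whole brain, 0.27 and 0.26 (Abat probes 1 and 3) in olfactory bulb, 0.052 (Abat probe 1) in cortex and 0.038 (Abat probe 1) in striatum, and whole brain minus cerebellum turned to 0.059 and 0.050 for Abat probes 1 and 3. Scaling between arrays turned Abat probe 2 in cerebellum to -0.0058 and Slc6a11 probe 2, whole brain minus olfactory bulb, to 0.33. The mean of both Gad2 probes in whole brain was 0.55. With each cerebellum array left out in turn, Abat in cerebellum ran from -0.11 (without replicate 2) to 0.078 with probe 2 and from -0.0074 (without replicate 3) to 0.017 with probe 3. The cause was not tested.

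Counts of called probes moved by over 1.5 times in 2 comparisons, always downwards. Olfactory bulb minus cortex (6028) fell to 3944 with the mean of probes, where 27266 genes were tested. It fell to as few as 3539 when arrays were left out, and cortex minus striatum (6599) to as few as 3453. The highest counts with an array left out, 6831 and 7715, stayed within 1.5 times. Lower counts came without olfactory bulb replicate 1 (3539), cortex replicate 1 (3944 and 3491), cortex replicate 3 (3671 and 3453), striatum replicate 1 (3634) and striatum replicate 2 (3943). Median centring moved the higher share of called probes from 41.3% to 53.4% (whole brain minus cerebellum), 53.2% to 68% (olfactory bulb minus cortex) and 50.8% to 63% (olfactory bulb minus striatum).

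The replicate block gave 6932 probes in olfactory bulb minus cortex and 7666 in cortex minus striatum, and every called member result kept its call. For member differences between groups that were not called, new calls under the block are not given. Of 30 pairs of arrays with the same number, 10 correlated above 0.1 (-0.117 to 0.226), so the number was not taken as a pairing. Scan day as a block was not run, since each day held either whole brain or regional arrays only. Signal over background limits what can be said of Abat probe 4.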
